A study of Mus musculus with 4 samples.

Results

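Transcripts of 40 genes of mitosis and of the spindle checkpoint were followed in mouse embryonic stem cells in which Mtf2 was targeted by RNA interference. The members were taken by gene symbol from the annotation of the array. Of the 40, 39 have at least 1 feature under their own symbol (68 features, of the 33653 features that carry a single symbol), and Ccnb1, which encodes cyclin B1, has no feature under its own symbol in that annotation. Of the 68 features, 62 read above the lowest usable level of 1 unit on at least 1 array and were tested, and 6 lay at or below it on all 4 arrays. Every one of the 39 genes kept at least 1 tested feature.

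The cells were the E14 line. Each of the 4 cultures received 1 plasmid: pSuper without an insert, the luciferase hairpin in pSuper, or 1 of the Mtf2 hairpins, numbered 1 and 3. Selection in puromycin began 1 day after transfection and had lasted 2 days at harvest, and all 4 cultures went through it, the controls included. The empty vector and the luciferase hairpin are compared as the control arm with the Mtf2 hairpins as the Mtf2 RNAi arm, 2 arrays in each. Values within an arm follow the order empty vector, luciferase hairpin, or hairpin 1, hairpin 3. Since every plasmid has a single array, p-values reflect no more than the spread among these 4 arrays, which holds differences between plasmids and may be technical, and an exact permutation test of 2 arrays against 2 cannot give a two-sided p below 0.333.

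Entry into mitosis is driven by Cdk1 bound to its cyclins, which Wee1 restrains and Cdc25 phosphatases release. The spindle assembly checkpoint then holds the anaphase-promoting complex inactive until every kinetochore is attached to the spindle, after which Cdc20 directs the destruction of securin and cyclin B, separase opens cohesin, and the central spindle guides cytokinesis. Embryonic stem cells divide rapidly with short gap phases, and transcripts of this machinery are abundant in such cells. Many of these genes are known to be transcribed late in the cell cycle through CCAAT boxes, bound by NF-Y, and through a cell cycle homology region (CHR), bound by MuvB complexes.

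Of the members with a promoter window, most held these elements in it. RefSeq promoter windows (build GRCm38.p6, 250 bases before to 50 after the start) were at hand for 33 of the 40 genes, in 36 windows. A CCAAT box (CCAAT on either strand) lay in 28 of the 36 windows, or 77.8%, against 37.4% of all 32851 windows. The CHR (TTTGAA on either strand) lay in 24, or 66.7%, against 17.9% of all windows, and its variant TTCGAA in 4, or 11.1%, against 1.56%. A CCAAT box together with the CHR or its variant was held by 63.9% of the member windows and by 7.52% of all windows. These shares count windows, not genes: Bub3, Ect2 and Prc1 are each counted in overlapping windows that all hold both elements. Matches may overlap, and a match is a description of the letters. Upstream sequences are shown for 4 members whose arms did not overlap, picked after their matches were seen to set unlike promoters side by side. Top2a and Ube2c are dense in these elements, and Bub1b holds few before its start. Birc5, the member with the widest difference, holds none in its window. The upstream bases of Nuf2, Nusap1 and Ndc80, whose arms did not overlap either, held no match and are not shown. The printed sequences run 5′ to 3′ along the gene up to the base before its start. Capitals mark the CCAAT box, the CHR and the CHR variant on either strand. Matches in the bases after the start, such as the CHR of Bub1b, are counted above and not shown.
Top2a, chr11:99024190-99024439, minus strand: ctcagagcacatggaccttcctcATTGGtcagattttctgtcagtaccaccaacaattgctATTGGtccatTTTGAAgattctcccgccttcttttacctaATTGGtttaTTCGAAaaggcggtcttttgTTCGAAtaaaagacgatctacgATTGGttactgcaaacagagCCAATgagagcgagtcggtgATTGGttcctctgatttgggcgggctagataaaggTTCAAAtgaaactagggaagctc
Ube2c, chr2:164769679-164769928, plus strand: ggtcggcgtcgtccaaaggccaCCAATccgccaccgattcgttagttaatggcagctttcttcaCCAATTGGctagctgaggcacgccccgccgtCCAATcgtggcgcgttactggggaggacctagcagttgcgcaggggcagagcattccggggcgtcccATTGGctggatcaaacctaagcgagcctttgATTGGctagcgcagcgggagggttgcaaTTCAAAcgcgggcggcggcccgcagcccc
Bub1b, chr2:118597961-118598210, plus strand: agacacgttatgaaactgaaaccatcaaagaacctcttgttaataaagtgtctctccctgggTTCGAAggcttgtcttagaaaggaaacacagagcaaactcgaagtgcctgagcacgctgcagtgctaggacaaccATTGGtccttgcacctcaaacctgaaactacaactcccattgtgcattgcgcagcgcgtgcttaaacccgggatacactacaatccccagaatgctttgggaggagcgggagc
Birc5, chr11:117848987-117849236, plus strand: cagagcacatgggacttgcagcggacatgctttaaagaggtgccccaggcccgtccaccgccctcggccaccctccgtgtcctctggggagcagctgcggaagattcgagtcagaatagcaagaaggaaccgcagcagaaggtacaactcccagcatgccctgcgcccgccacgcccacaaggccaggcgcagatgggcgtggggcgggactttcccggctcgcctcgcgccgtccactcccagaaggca

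No member passed the test of a difference between the arms. In bulk RNA a changed share of dividing cells and a changed amount of transcript per dividing cell cannot be told apart. In the fit over all 35102 tested features (limma, Benjamini-Hochberg adjustment over all of them), 0 of the 62 member features passed an adjusted p of 0.05, and 0% of all features did. The smallest adjusted p among the members was 0.868. At an unadjusted p under 0.05 stood 1 member feature, a second feature of Cdc25b, against 4.18% of all features. With each gene represented by its brightest feature, 0 of the 39 members had an unadjusted p under 0.05 in either direction, against 1.57% of all 16764 named genes in the higher and 2.66% in the lower direction.

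With Mtf2 RNAi 22 members read higher and 17 lower than in the controls (18 of 39 higher after quantile normalization). Their median difference was 0.03 log2, against -0.01 over all named genes. The arms did not overlap for 6 members in the higher direction (Birc5, Wee1, Ube2c, Nuf2, Nusap1 and Ndc80) and for 6 in the lower (Incenp, Kif2c, Bub1b, Top2a, Tpx2 and Bub1). That is 15.4% of the members each way, where 15.1% of all named genes lay apart in the higher and 18.3% in the lower direction, so the members' share is near the background. Differences reached 0.5 log2 in 3 members, Birc5, Incenp and Wee1, and 1 log2 in none of the 39. Among all named genes 23.6% reached 0.5 log2 and 5.46% reached 1. Of genes brighter than the 75th percentile to which each array was scaled, 5.56% of the members and 19.7% of the named genes reached 0.5 log2. In the same bright genes 0% and 4.85% reached 1. The 95% intervals of the limma fit held 0 for all 39 members. Their median half-width was 0.69 log2, and for 21 members the interval reached past 1 log2 on 1 side or the other, so changes of 2-fold were not excluded for these.

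Most members were bright. The brightest feature of 36 of the 39 members stood above 22.98 units, the common 75th percentile to which each array was scaled, and none of the 39 was at the floor on any array. The exceptions below that level were Cdc25a, Cdc25c and Wee1. Over the 4 arrays the highest value of a member was 1.51 times its lowest at the median (0.59 log2), against 0.72 log2 over all named genes and 0.66 log2 over the 7362 named genes above the 75th percentile level. The 4 values differed at least 2-fold in 5 members (12.8%), Kif20a, Cenpf, Birc5, Cdc25c and Bub3, and in 26.7% of all named genes. Among bright genes the share was 11.1% of the members and 20.3% of the named genes above the 75th percentile level. Levels of different genes come from different features and were not set against each other.

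**Figure D1:**
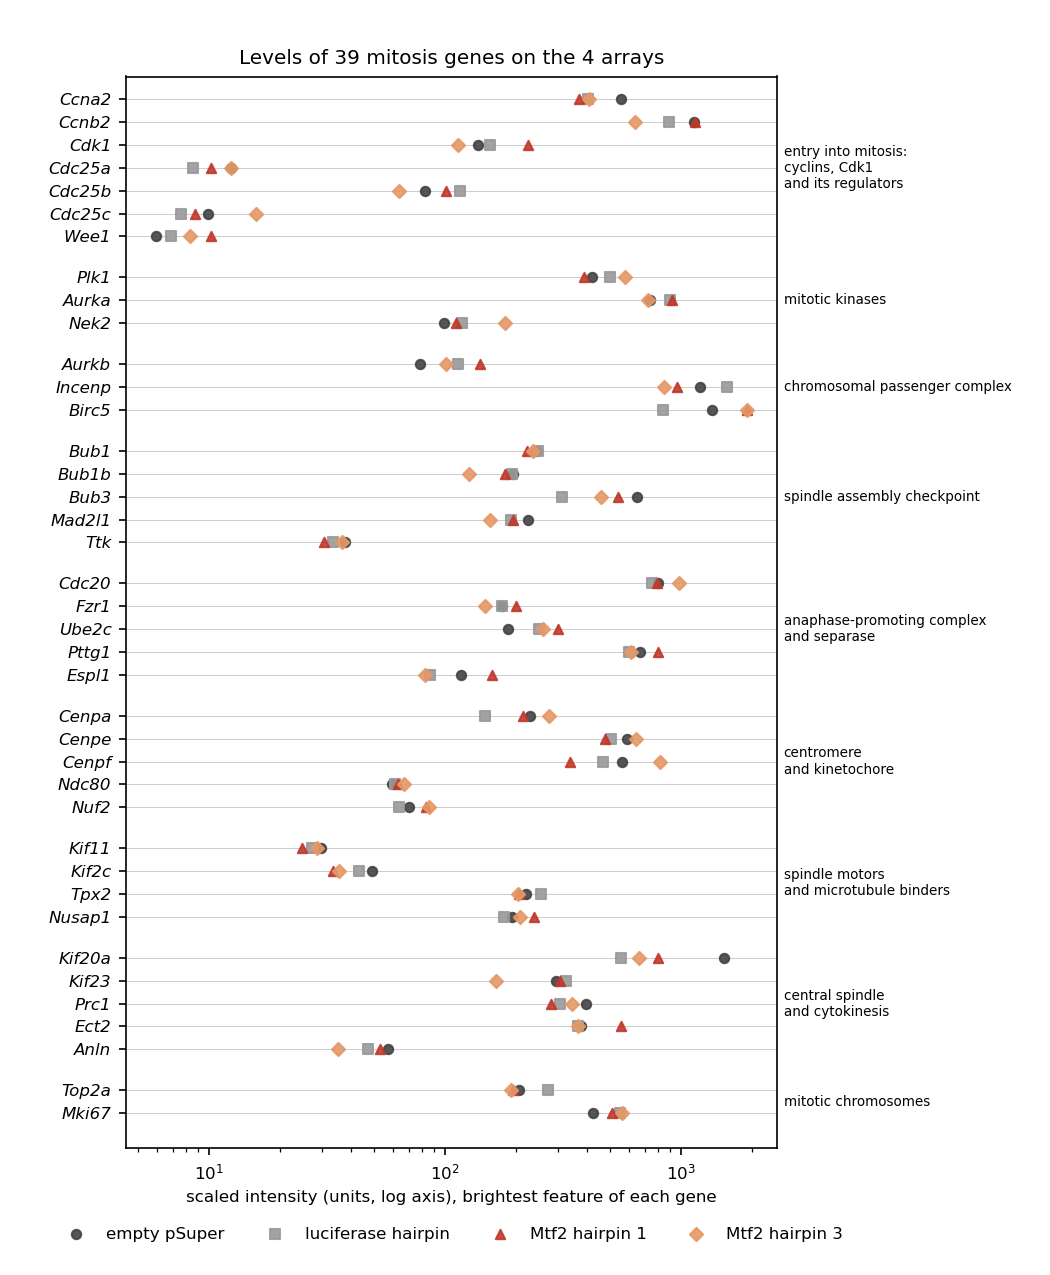
Scaled intensity (units, logarithmic axis) of the brightest feature of each of the 39 members on the 4 arrays, grouped by role; each symbol is 1 array. The 4 values lie within 1.5-fold in 19 members, with Kif20a on the empty-vector array at 1521 units and Birc5 on both Mtf2 arrays at 1909 units standing to the right of the rest of their rows.

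The chromosomal passenger complex, which corrects faulty attachments of chromosomes to the spindle and later moves to the midzone, held both of the widest differences, in opposite directions. Birc5, which encodes survivin, a subunit that brings the complex to the centromere, read 1909 units on each of the Mtf2 arrays, against 1352 (empty vector) and 840.4 (luciferase hairpin). Both Mtf2 arrays stood above both controls, which were themselves 0.69 log2 apart. The difference was 0.84 log2, or 1.79-fold (SE 0.33, 95% interval -0.01 to 1.69, limma adjusted p = 0.868), and lay between 0.50 and 1.18 log2 when each array in turn was left out. It was 0.50 without the luciferase array, so that 1 control decides much of its size.

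Incenp, the scaffold subunit of the same complex, read 1199 and 1561 units in the control arm against 961.5 and 841.9 with hairpins 1 and 3. Both Mtf2 arrays were below both controls, at a difference of -0.60 log2, or 0.658 of the control level (SE 0.28, 95% interval -1.31 to 0.10, adjusted p = 0.868). Leaving out each array in turn gave -0.79 to -0.41. Aurkb, the kinase of the complex, read 78.4 and 112.8 in the control arm against 140.6 and 100.7 in the Mtf2 arm, with overlapping arms (0.34 log2, SE 0.30, and 0.08 to 0.60 with each array in turn left out). The features around those of Birc5 and Incenp read, on the empty-vector array, 0.34 and 0.33 log2 above their median over the 4 arrays, under the limit of 0.5 log2 at which a position was called defective, and the part of this in either difference was not tested.

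Of the cyclins, Cdk1 and its regulators, 4 of 7 measured members read higher and 3 lower, with a median of 0.13 log2. Wee1, the kinase that keeps Cdk1 inactive, was dim, at 5.92 and 6.90 units in the control arm against 10.2 and 8.27 with hairpins 1 and 3. Its arms did not overlap, at a difference of 0.52 log2 (SE 0.34, 95% interval -0.34 to 1.38, adjusted p = 0.868). Cyclin A2, Ccna2, read 558.7 units with the empty vector and 403.5, 370.5 and 407.4 on the other arrays, so that the empty vector alone stood high.

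Cdk1 and its partner Ccnb2 were split by the hairpins. Cdk1 read 137.8 and 154.2 in the controls, 224 with hairpin 1 and 113.3 with hairpin 3. Ccnb2 read 1133 and 892.1 in the controls, 1147 with hairpin 1 and 634.5 with hairpin 3. In both genes hairpin 1 was the highest and hairpin 3 the lowest of the 4 arrays. For Ccnb2 hairpin 1 stood close to the empty vector, so only hairpin 3 lay clear of the controls. The arms overlapped in both genes (0.13 log2, SE 0.37, for Cdk1 and -0.24, SE 0.37, for Ccnb2).

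The Cdc25 phosphatases, which remove the phosphates that Wee1 adds, were measured on 7 features. Cdc25a read 0.13 log2 (SE 0.35) on its brightest feature and 0.79 (SE 0.37) on a feature under 4 units. Cdc25b read -0.28 log2 (SE 0.33) on feature 34256, which gave 82.1 and 116 units in the control arm against 101.3 and 63.6 in the Mtf2 arm. On feature 19959 it read 67.9 and 57.3 in the control arm against 37.8 and 40.9 in the Mtf2 arm, a difference of -0.67 (SE 0.23, unadjusted p = 0.0346 and adjusted p = 0.868 in limma). Its dimmest tested feature, near the floor and within the defects of the empty-vector array, read 0.59 log2. Cdc25c read 0.44 log2 (SE 0.42) and -0.01 (SE 0.39) on its features, and the first of these rests on hairpin 3, at 15.7 units where the other 3 arrays lay between 7.56 and 9.86.

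The arms overlapped for Plk1, Aurka and Nek2, 3 kinases of spindle assembly and mitotic progression. Aurka, which matures the centrosomes and builds the spindle poles, read 740.2 and 894.9 units in the control arm against 912.5 and 726.1 in the Mtf2 arm (0.00 log2, SE 0.27). Plk1, which acts from mitotic entry to cytokinesis, read 417.8 and 497.8 in the control arm against 386.6 and 576.8 in the Mtf2 arm (0.05 log2, SE 0.29). Nek2, a kinase that loosens the link between centrosomes, read 99 and 117.3 in the control arm against 111.6 and 179 in the Mtf2 arm (0.39 log2, SE 0.31), with hairpin 3 alone standing high and a difference of 0.05 without it.

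Of the 5 checkpoint genes, 4 read lower and 1 higher, with a median of -0.09 log2. Bub1, a kinase that loads the checkpoint proteins on the kinetochore, was among the steadiest members, at 242.1 and 246.9 units in the control arm against 223.2 and 234.7 in the Mtf2 arm. Its arms did not overlap, yet the difference was only -0.09 log2 (SE 0.21). Bub1b, which encodes BubR1, a part of the inhibitor of the anaphase-promoting complex, read 193.2 and 191.2 in the controls, 179.7 with hairpin 1 and 126.7 with hairpin 3 (-0.35 log2, SE 0.26), and the difference was -0.10 without hairpin 3.

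Mad2l1, the Mad2 subunit that captures Cdc20, read -0.25 log2 (SE 0.24) on its brightest feature and 0.09 (SE 0.30) on another. Ttk, the kinase Mps1 at the top of the checkpoint, read -0.08 (SE 0.25), and its 4 values lay between 30.6 and 37.5 units. Bub3, the partner of Bub1 and BubR1, showed its widest gap within the control arm, at 650.1 (empty vector) and 312.5 units (luciferase hairpin), and both hairpins lay between them at 541 and 458.3 (0.14 log2, SE 0.40).

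Genes of the anaphase-promoting complex and of separase gave 4 higher and 1 lower, with a median of 0.18 log2. Ube2c, the ubiquitin-conjugating enzyme of the complex, read 184.5 and 248.9 units in the control arm against 299.9 and 260.4 in the Mtf2 arm. The arms did not overlap (0.38 log2, SE 0.26, 95% interval -0.27 to 1.04), and the difference lay between 0.17, without the empty vector, and 0.60 when each array in turn was left out. Cdc20 and Fzr1, the activators of the complex, read 0.18 log2 (SE 0.26) and -0.02 (SE 0.25). Pttg1, or securin, the inhibitor of separase, read 0.14 (SE 0.26). Separase itself, Espl1, read 117 and 86.3 in the controls, 158.3 with hairpin 1 and 82.3 with hairpin 3, so that the Mtf2 arrays held both its highest and its lowest value (0.18 log2, SE 0.38).

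All 5 genes of the centromere and kinetochore read above 0, with a median of 0.10 log2, and none passed the test. Nuf2 and Ndc80 encode partners in the complex that binds microtubule ends. Nuf2 read 70.2 and 63.9 units in the control arm against 83.1 and 85.4 in the Mtf2 arm (0.33 log2, SE 0.21, 95% interval -0.22 to 0.88), and Ndc80 read 59.8 and 61.4 against 63 and 66.8 (0.10 log2, SE 0.21). In both genes the arms did not overlap. Cenpa, the histone H3 variant that marks centromeres, read 228.1 and 147.9 in the control arm against 212.7 and 274.6 in the Mtf2 arm (0.40 log2, SE 0.31), and its difference was 0.08 without the luciferase array and 0.71 without the empty vector. The motor Cenpe read 0.02 (SE 0.27). Cenpf, a large protein of the outer kinetochore, read 562.2 and 466.2 in the controls, 338.2 with hairpin 1 and 810.7 with hairpin 3 (0.03 log2, SE 0.46), the widest gap between the hairpins of any member.

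Spindle motors and microtubule binders gave 1 higher and 3 lower. Kif2c, or MCAK, a kinesin that takes microtubule ends apart, read 49 and 43 units in the control arm against 33.5 and 35.5 in the Mtf2 arm. Both hairpins lay below both controls (-0.41 log2, SE 0.23, 95% interval -1.01 to 0.18). Tpx2, which activates Aurora A on the spindle, read 220.1 and 254.8 against 205.8 and 202.7 (-0.21, SE 0.22). Nusap1, which bundles microtubules near chromosomes, read 191.6 and 176.8 against 237.5 and 207.9 (0.27, SE 0.22). Kif11, the motor that pushes the poles apart, read -0.09 (SE 0.25), with 4 values between 24.8 and 29.7 units.

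Genes of the central spindle and of cytokinesis gave 1 higher and 4 lower, with a median of -0.26 log2, and the arms overlapped in all 5. Kif20a, a kinesin that carries the passenger complex to the midzone, read 1521 units with the empty vector, against 556.5 for luciferase RNAi and 801.4 and 663.6 for hairpins 1 and 3. The empty vector stood apart from the other 3 arrays, and the difference of -0.34 log2 (SE 0.52) was 0.39 without it and -1.06 without the luciferase array. The second feature of Kif20a read 606.6 and 462.1 in the control arm against 440.9 and 427.4 in the Mtf2 arm (-0.29, SE 0.25). Kif23, the kinesin of the centralspindlin complex, read 295.1 and 324.2 in the controls, 306.6 with hairpin 1 and 163.5 with hairpin 3 (-0.47, SE 0.35, and -0.01 without hairpin 3), while its other bright feature read 0.13 log2 (SE 0.27). Prc1, which crosslinks the midzone, read -0.17 (SE 0.26), and anillin, Anln, -0.26 (SE 0.30). Ect2, the exchange factor that activates RhoA for the contractile ring, read 0.29 (SE 0.29), with hairpin 1 at 558.3 units and the other arrays between 365 and 375.4.

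Of the genes of mitotic chromosomes, Top2a, which encodes the topoisomerase that untangles sister chromatids, read 205 and 271.9 units in the control arm against 193.8 and 189.7 in the Mtf2 arm (-0.30 log2, SE 0.24). Its arms did not overlap, and the difference lay between -0.50 and -0.10 when each array in turn was left out. The second brightest feature of Top2a was dim, at 14.1 to 21.6 units, and read 0.03 log2 (SE 0.36). Its remaining feature, near the floor, read -0.23 (SE 0.51). Mki67, the Ki-67 proliferation marker that coats mitotic chromosomes, read 423.1 and 553.1 in the control arm against 511 and 562.2 in the Mtf2 arm (0.15, SE 0.26).

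**Figure D2:**
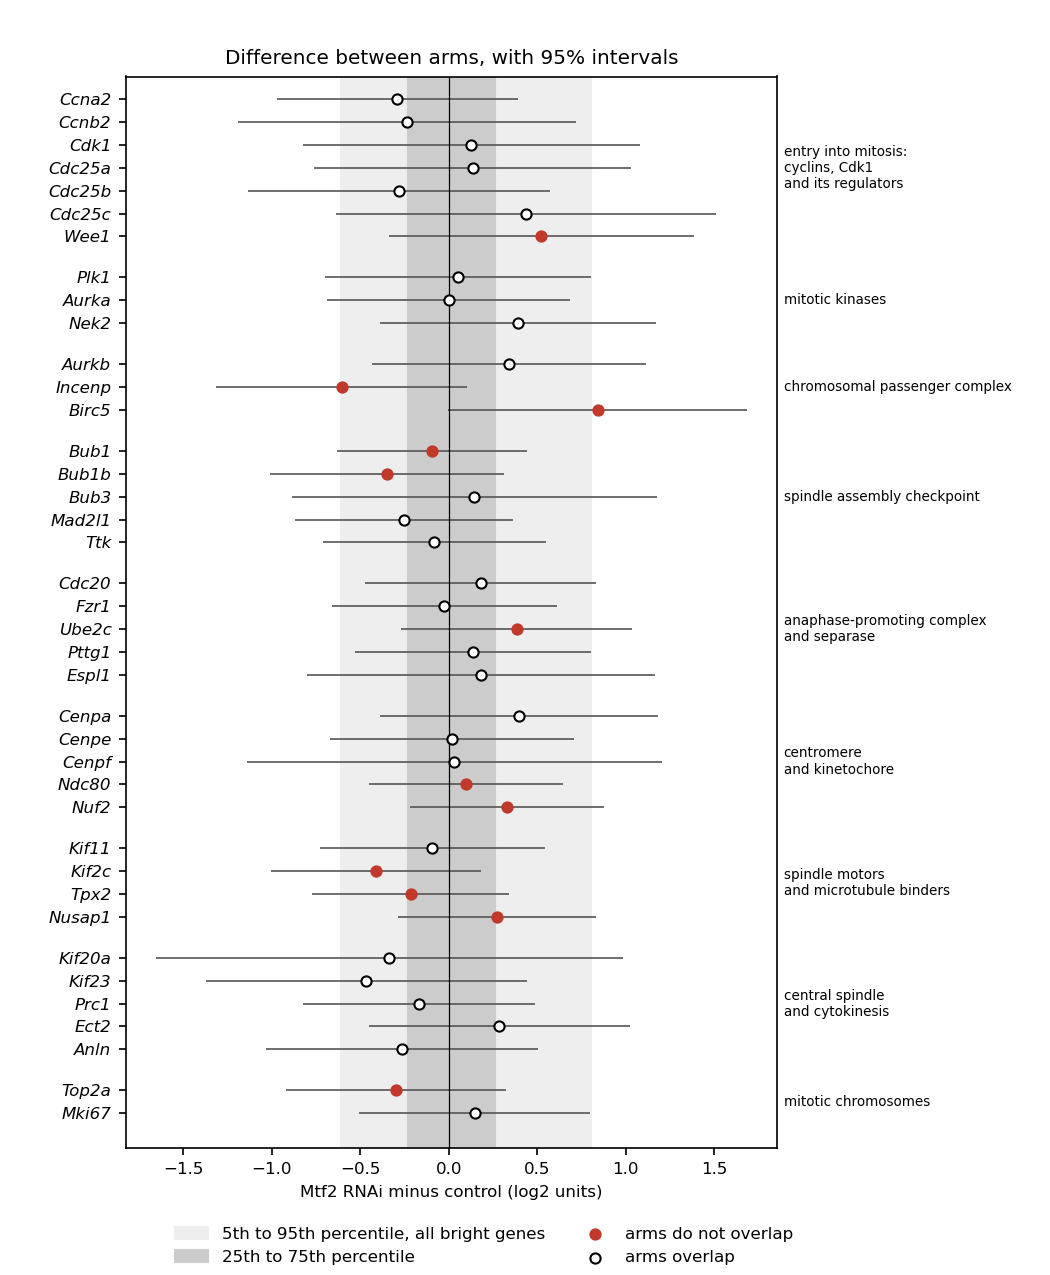
Difference between the arms (Mtf2 RNAi minus control, log2 units) for the brightest feature of each member, with the 95% interval of the limma fit; filled points mark genes whose arms do not overlap, and the grey bands span the middle of the 7362 named genes above the 75th percentile level. All 39 intervals hold 0, and Birc5 at 0.84 lies outside the wider band on the right.

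The spread within each arm was as large as the difference between the arms. The median size of the difference between hairpin 3 and hairpin 1 was 0.32 log2 over the members, that between the luciferase hairpin and the empty vector 0.25, and that between the arms 0.25. The last is a difference of means of 2 arrays each, which vary less than single arrays. Over the 7362 named genes above the 75th percentile level the same values were 0.30, 0.31 and 0.25. Both hairpins lay above the mean of the controls in 13 members, both below it in 11, and on opposite sides in 15. These counts compare each hairpin with the same controls.

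Hairpin 3 read above hairpin 1 in 17 of the 39 members (43.6%, against 46.5% of all named genes), with a median of -0.03 log2. The 2 arrays differed at least 2-fold only in Cenpf (1.26 log2), and in 1287 of all 16764 named genes. The differences next in size were those of Cdk1 (-0.98), Espl1 (-0.94), Kif23 (-0.91), Cdc25c (0.86) and Ccnb2 (-0.85). All 5 centromere and kinetochore genes were higher with hairpin 3 than with hairpin 1, from 0.04 to 1.26 log2. With 1 array a hairpin there is no test of this. In the control arm, the luciferase hairpin read above the empty vector in 16 of the 39 members (median -0.12 log2). That is 41%, against 41.8% of all named genes, so the share is near the background. At least 2-fold apart were Kif20a (-1.45) and Bub3 (-1.06), and 1670 of all 16764 named genes. The highest of the 4 values was on the empty-vector array in 10 members, on the luciferase array in 6, with hairpin 1 in 12 and with hairpin 3 in 11. The lowest was there in 6, 10, 9 and 14 members. In the same order, the highest value lay there in 29.5%, 21.1%, 25.1% and 24.3% of the 7362 named genes above the 75th percentile level. For the members these shares were 25.6%, 15.4%, 30.8% and 28.2%. The lowest lay there in 24.5%, 26.4%, 24.4% and 24.7% of those genes, and in 15.4%, 25.6%, 23.1% and 35.9% of the members.

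**Figure D3:**
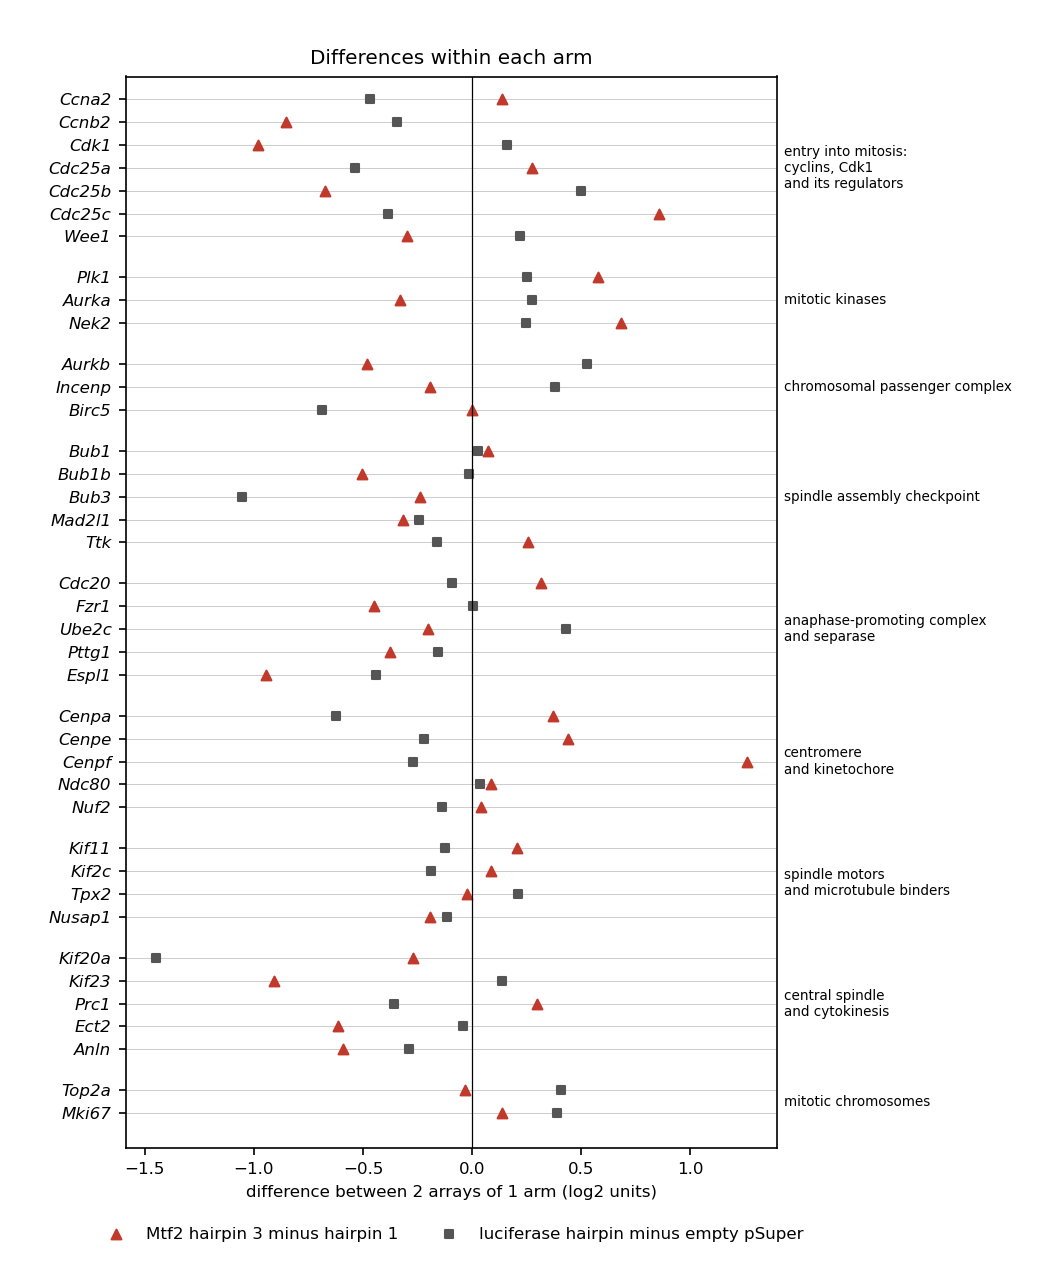
Differences between the 2 arrays of each arm (log2 units) for the 39 members, with triangles for Mtf2 hairpin 3 minus hairpin 1 and squares for the luciferase hairpin minus the empty vector. Cenpf at 1.26 and Kif20a at -1.45 lie farthest out, and triangles and squares fall on both sides of 0.

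Features of the same gene often disagreed in direction. Besides the brightest, 18 members had 23 further tested features, of which 11 had the sign of the brightest and 12 the opposite sign. That is 47.8% with the same sign, against 51% over 11393 such features of all named genes. In 7 cases both features stood above the 75th percentile level, and 3 of these had the same sign. Over all named genes 52.2% of such bright pairs did. The median gap between a further feature and the brightest was 0.25 log2 for the members and 0.40 over all named genes. Signs opposed by over 0.5 log2 in Cdk1 (feature 35703, near the floor, at -0.43), Cdc25b (the near-floor feature at 0.59) and Kif23. Birc5, Incenp, Wee1, Bub1b, Bub1, Kif2c and Tpx2 are among the 17 members with a single feature. The second features of Ube2c and Ndc80 lay at the floor on all 4 arrays. No second measurement therefore bears on any of the members just named.

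**Figure D4:**
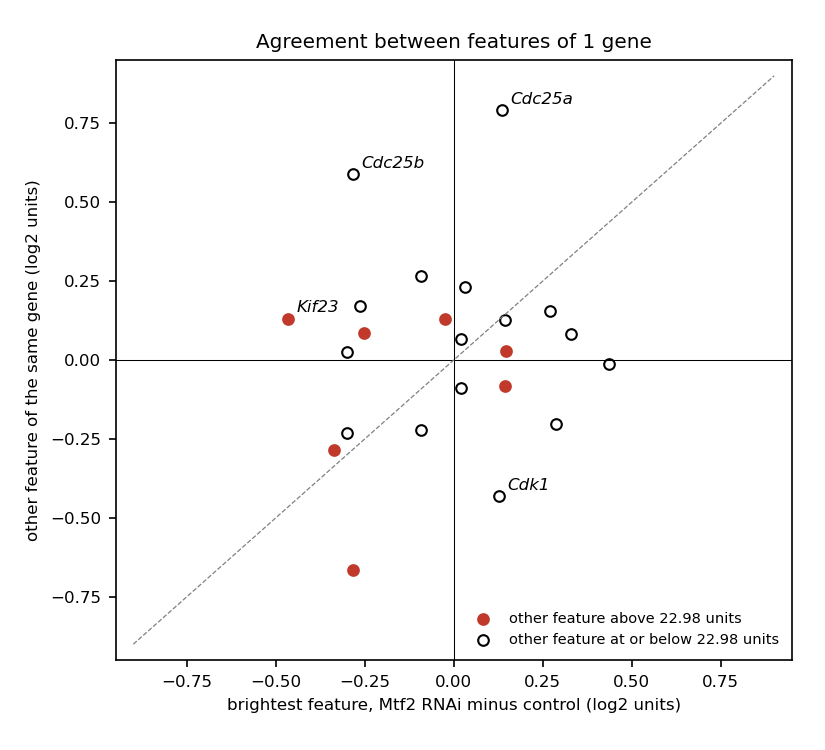
Difference between the arms on the brightest feature of a member (horizontal axis, log2 units) against that on each of its other tested features (vertical axis); filled points are other features above 22.98 units and the dashed line marks equal values. Of the 23 points, 12 lie in the quadrants of opposite sign, and names are given where the features are over 0.5 log2 apart.

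A wider list of 121 further mitosis genes (subunits of the anaphase-promoting complex, kinetochore and cohesin genes, kinesins, spindle, centrosome and cytokinesis genes, and transcription factors of mitotic genes) was read in the same fit. Of these 114 were measured, 59 higher and 55 lower, with a median of 0.01 log2. None passed the adjusted threshold in limma. An unadjusted p under 0.05 was reached by 4 of the 114, where 710 of all 16764 named genes reached it, so the count is near the background. The arms did not overlap for 20 genes (17.5%) in the higher and 19 (16.7%) in the lower direction, against 15.1% and 18.3% of all named genes, also near the background. The kinesins gave 3 higher and 4 lower (median -0.41 log2), the checkpoint and passenger genes 3 and 4 (-0.17), the anaphase-promoting complex subunits 4 and 10 (-0.16), and the spindle and centrosome genes 8 and 11 (-0.06). Medians above 0 were those of the kinases and cyclins with 6 higher and 4 lower (0.02 log2), the kinetochore and centromere genes with 17 and 13 (0.13), the transcription factors of mitotic genes with 7 and 3 (0.17), the cytokinesis genes with 4 and 0 (0.20), and the cohesin genes with 7 and 6 (0.27). The further cytokinesis genes thus all read above 0, from 0.003 log2 (Cep55, SE 0.41) to 0.34 (Cit, SE 0.29). Of the 5 members of that role, 4 read lower.

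The 4 with the smallest p were all lower. Cenpk, a kinetochore subunit, read 172.2 and 154 units in the controls, 14 with hairpin 1 and 67.3 with hairpin 3 (-2.41 log2, SE 0.74, adjusted p = 0.868 in limma). Its second feature went the other way, at 67.5 and 59.6 in the control arm against 86.8 and 106.9 in the Mtf2 arm (0.60 log2, SE 0.24). The kinesin Kif15 read 69.7 and 70 against 40.1 and 47.2 (-0.68, SE 0.23). Sgo2a, a shugoshin that guards cohesin at centromeres, read 190.2 and 151 against 102.7 and 109.8 (-0.67, SE 0.23), and 0.25 log2 on its other feature. Spc24, a further subunit of the complex of Ndc80 and Nuf2, read 74.3 and 81.6 against 47.7 and 54.2 (-0.62, SE 0.22). Spc25, listed with it among the kinetochore genes, read -0.08 (SE 0.26) with overlapping arms, and Nuf2 and Ndc80 stood above 0.

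The other differences of at least 1 log2 in this list, all higher, rest on the empty-vector array. Haus8 read 3.13 units there and 194.5 to 291.4 on the other 3 arrays, Cenpq 3.51 against 112.8 to 167.6, Pmf1 21.7 against 99.3 to 130.5, and Smc3 61.3 against 340.1 to 396.4. Haus8 lies within the defects of that array. The Cenpq, Pmf1 and Smc3 features do not by the rule used, and the cause of their low values was not tested.

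**Figure D5:**
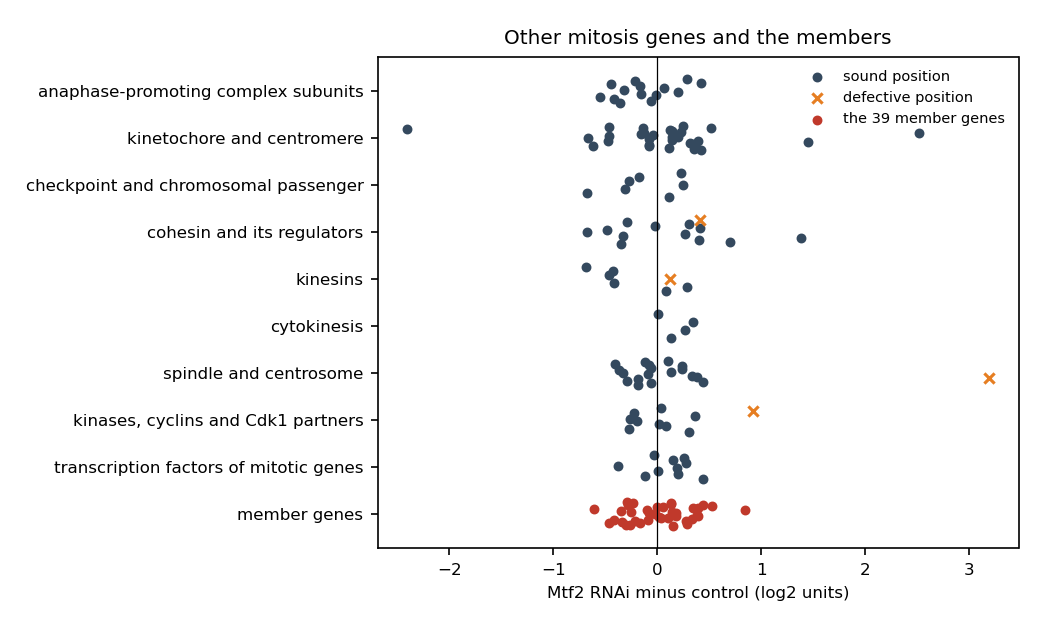
Difference between the arms (Mtf2 RNAi minus control, log2 units) for the brightest feature of 114 further mitosis genes by role and, in the last row, of the 39 members; crosses are features at defective positions. The members lie between -0.60 and 0.84, while Cenpk at -2.41 and Haus8, far to the right, are the farthest points of the wider list.

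The arrays and the target set the frame for these values. Of 45220 positions on the empty-vector array 1681 were defective, against 8 to 23 on the others. They include 1 of the 68 member features, that of Cdc25b near the floor, and 0 of the 39 brightest features. Log2 values of the 39 members correlated between arrays with Pearson r of 0.964 to 0.978, across genes that are not independent replicates. Over all features r was 0.945 to 0.949 between the empty-vector array and the others, and 0.976 to 0.979 among the others. Mtf2 read 0.474 to 0.583 of the control level on 3 of its 4 features. The brightest feature read 174.8 units with the empty vector, 737.2 for luciferase RNAi, and 501.1 and 335 for hairpins 1 and 3, or 1.14 of the control level and 0.556 of the luciferase array alone, with no feature past the threshold (limma, adjusted p of 0.868 to 0.954). All 8 markers of embryonic stem cells stood above 22.98 units, with a summed level of 7421 to 10247 units in the controls and 8080 to 9365 with Mtf2 RNAi. Dppa5a and Zfp42 made up most of these sums. Of the 8 markers, 5 read higher with Mtf2 RNAi and the others lower. The arms did not overlap for Nanog (0.86 log2, SE 0.39), Esrrb (-0.29, SE 0.24) and Utf1 (-0.40, SE 0.29). Of 8 fibroblast markers, which would mark feeder cells, Vim and Thy1 stood above 22.98 units. All but S100a4 read lower with Mtf2 RNAi, some of them by less than the SE. The summed level was 684.4 to 853.3 units in the controls and 607.8 to 695.1 with Mtf2 RNAi, most of it Vim, which stem cells in culture also express. Dcn, Lum and Postn stayed under 2 units, at differences of -0.10 (SE 0.32), -0.05 (SE 0.31) and -0.16 log2 (SE 0.21). The part of these levels in the members' values was not tested.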

How the data were processed

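The deposited table holds 1 linear intensity per feature and array. Trizol RNA was turned into Cy3 cRNA with a 1-colour Agilent kit, per the labels' protocols. How the authors scanned, corrected for background and normalized is not stated in these sources. Between 2260 and 2879 features per array read 0 or less, so some background had been subtracted.

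Arrays were brought to 1 shared 75th percentile (22.98 units), a floor of 1 unit was set, and values were put on the log2 scale. The 10118 of 45220 features at that floor on all 4 arrays were left out. The arms were fitted with limma 3.58.1 in R 4.3.3 (lmFit, eBayes with an intensity trend), with Benjamini-Hochberg adjustment over 35102 features and a threshold of 0.05. The procedure was tested on simulated data. The number of arrays limits the precision. Names come from the platform's annotation, where 33653 features have 1 symbol, 56 several (unnamed here) and 11511 none listed. A gene is represented by its brightest feature. A position was called defective where its neighbours in a square of 7 by 7, with rows of 85 inferred from feature numbers, deviated by over 0.5 log2 at the median from the 4-array median.

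The members, the lists and the settings were chosen with earlier results of these data known. Values on every array were to be given for members with an unadjusted p under 0.05, with separate arms at least 0.5 log2 apart, or with an 8-fold range. Those of other members, the sequences, and the wider list's genes at least 1 log2 apart were picked after their values were seen. Alternatives changed the scaling, floor, dim filter, positions, feature rule and trend, and left out each array.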

Additional observations from a re-analysis of the deposited data

How the results depend on the processing

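No member feature and no member gene passed the adjusted threshold under any of the 13 alternatives. Over all features 0 passed in 12 of them, and 36 passed with no filter on dim features, all with mean levels of at most 1.352 units and none a member. Members higher than control numbered 17 to 22 of 39, and 18 after quantile normalization, where the median was -0.02817. Leaving out 1 array at a time, the median ran from -0.03545 (without the luciferase array) to 0.04713. Of 507 member values 34 changed sign, in 20 genes, none of which had a main difference over 0.335 log2 in size, and the cause was not tested. With the median over a gene's features these were Cdk1 (-0.1521), Bub3 (-0.08108), Fzr1 (0.05293), Cenpe (-0.08853) and Top2a (0.0262), and with quantile normalization Plk1 (-0.06573), Aurka (-0.02817), Cenpe (-0.07701) and Cenpf (-0.03465). The other sign changes came with 1 array left out, where the differences ranged from -0.664 to 0.1905 in Ccnb2, -0.3635 to 0.6195 in Cdk1, -0.1331 to 0.4027 in Cdc25a, -0.6194 to 0.05282 in Cdc25b, -0.2382 to 0.3388 in Plk1, -0.1646 to 0.165 in Aurka, -0.3846 to 0.672 in Bub3, -0.2106 to 0.047 in Ttk, -0.2487 to 0.199 in Fzr1, -0.05073 to 0.3259 in Pttg1, -0.2875 to 0.6555 in Espl1, -0.2004 to 0.2395 in Cenpe, -0.5982 to 0.6631 in Cenpf, -0.1938 to 0.009666 in Kif11, -1.061 to 0.3901 in Kif20a, -0.3449 to 0.01108 in Prc1, -0.0206 to 0.5925 in Ect2, -0.5596 to 0.03204 in Anln and -0.04547 to 0.3411 in Mki67. With 1 array left out, the lone array of an arm is assumed to vary like the other arm. No paired analysis was possible because the arms share only the number 1, given to the control in accession order. The half-widths given with the members limit what these few arrays can resolve.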
